A study of Mus musculus with 21 samples.

Results

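Molecular chaperones of the heat shock families were measured as transcripts in mouse gastrocnemius muscle, over 3 groups that differed in treadmill training. The members were the rows of the count table whose symbols begin with Hspa, Hspb, Hsp90, Hspd1, Hspe1, Hsph1, Dnaja, Dnajb or Dnajc, with Cct2 to Cct8 and Bag1 to Bag6, and with a mean of at least 10 counts per library. Of 40853 rows, 87 carried such a symbol and 79 of these reached the minimum. The 8 left out were Cct8l1, Dnajb3, Dnajb7, Dnajb8, Dnajb13, Dnajc5b, Dnajc5g and Hspb9. The 79 were 26 Dnajc, 14 Hsp70 and Hsp110, 9 Dnajb, 8 CCT, 7 small Hsp, 6 Bag, 4 Dnaja and 3 Hsp90 genes, with Hspd1 and Hspe1, and all 79 passed the filter on low counts.

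The 21 animals were wild-type female C57BL/6NJ mice, 10 weeks old when the study began, with 7 mice in each group. Mice in the Inactive group stayed sedentary for 6 weeks. Mice in the Active group ran on a treadmill for 6 weeks, in 5 sessions a week of up to 40 min, a slow warm-up included, with the main run at about 70% of their maximal speed, and mice in the Activity Reduction group did so for 4 weeks and were then inactive for 2 weeks. Every mouse, the Inactive ones included, ran a last maximal test, and the medial belly of the muscle was taken 48 to 72 h afterwards, following a fast of some hours. Each library came from 1 mouse. The tissue was the whole belly, with its mixed fibres and other cells, so fewer cells of a type and less RNA per cell cannot be told apart.

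Chaperones bind proteins that are unfolded or not yet assembled and let them fold without clumping. Hsp70 takes up and releases clients in a cycle driven by ATP, with J-domain proteins (Dnaja, Dnajb, Dnajc) starting the cycle and nucleotide exchange factors (Hsp110, Bag) ending it. Hsp90 finishes kinases, steroid receptors and, in muscle, myosin. The CCT ring encloses and folds actin and tubulin, and small heat shock proteins hold damaged filament proteins without using ATP. Heat shock factor 1 (HSF1) raises many of these genes in muscle after heat or hard contraction.

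Library totals ran from 38482455 to 49211581 counts in the Active group, from 48906675 to 55773226 in the Activity Reduction group and from 49284630 to 59785132 in the Inactive group. Every Active library was below every Inactive library in depth, so depth and that comparison cannot be told apart. The 10 muscle markers summed to between 193339 and 239406 CPM, which are counts scaled to a common library total, so the labelled tissue had its defining transcripts in every library. Transcripts of 24 liver genes summed to between 897 and 2460 CPM in 8 libraries and to between 200.5 and 399.7 CPM in the other 13, and 5 of those 8 were Active, 2 Activity Reduction and 1 Inactive. Of the 24, Mup20 was at 0 in some libraries and the others were counted in every one. The 9 macrophage markers summed to between 30.5 and 45.7 CPM in the Active group, 23.4 and 40.7 in the Inactive group and 17.0 and 38.6 in the Activity Reduction group. Values are given again below for the libraries with fewer liver transcripts, of which 2 were Active, 5 Activity Reduction and 6 Inactive.

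Per length, a small set of members made up most of the chaperone transcripts. Levels between genes are given in CPM divided by the exon length in kilobases (RPKM). RPKM could be formed for 78 members, since Hspb11 had no gene model under that symbol in the annotation used. Hsp90ab1, the constitutive cytosolic Hsp90, was highest at a mean of 212 RPKM. Hspb6, a small heat shock protein abundant in striated muscle, followed at 182 RPKM. Next came the mitochondrial Hsp70 gene Hspa9 at 96.9, the constitutive cytosolic Hsp70 gene Hspa8 at 88.9, and Hspb8, Hspb7 and Hspb1 at 88.2, 79.9 and 76.0 RPKM. The exon length joins the exons of every transcript of a gene, 8680 bases for Hspa8 and 5131 for Hspa9. By mean counts per library Hspa8 (38731) stood above Hspa9 (24899), so the order of genes depends on the length used. Among J-domain proteins the highest was Dnaja2 at 72.1 RPKM, and Dnajb5 (32.6) and Dnajc21 (20.7) led their own families.

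**Figure D1:**
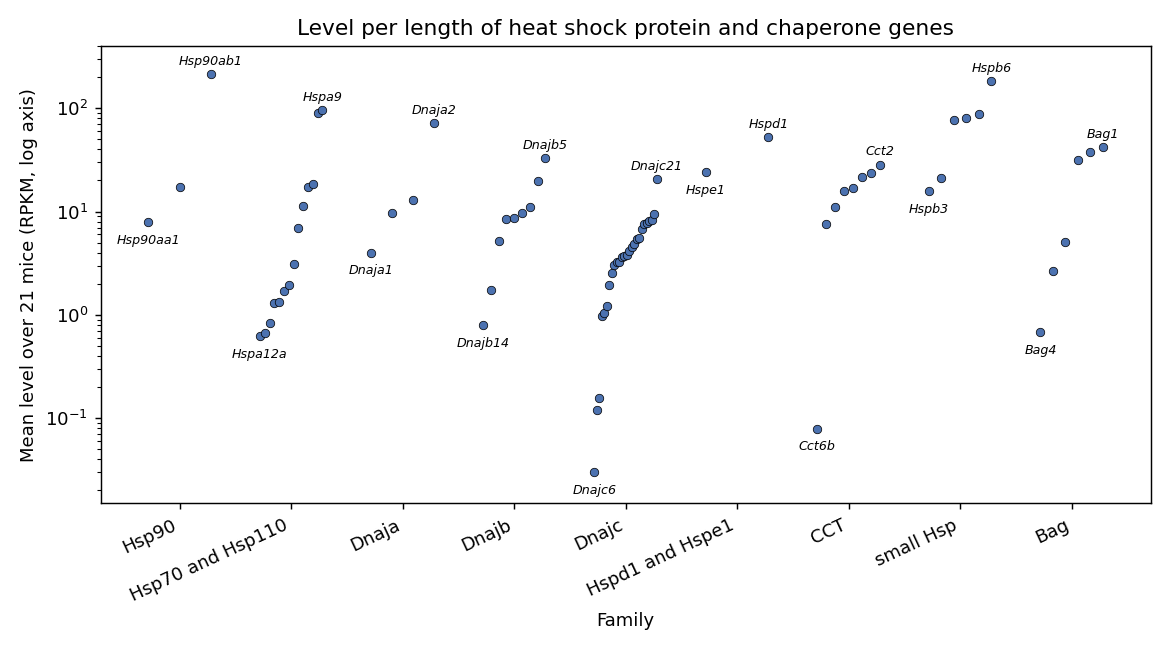
Mean level over the 21 mice of each member with a gene model, in RPKM on a log axis, by family, with one point per gene. Hsp90ab1 (212 RPKM) and Hspb6 (182 RPKM) stand highest, and Hspa1a (1.32) and Hspa1b (0.834) lie far below Hspa8 (88.9).

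Several stress-inducible forms were low as means over the 21 mice, though Hspb1, also known to be raised by HSF1, stood at 76.0 RPKM. Hspa1a averaged 1.32 and Hspa1b 0.834 RPKM, against 88.9 for Hspa8. Dnajb1, the heat-inducible J-domain partner of Hsp70, averaged 1.75 RPKM, and Hsp90aa1, the inducible Hsp90, averaged 7.87 RPKM against 212 for Hsp90ab1. Hspa8 and Hsp90aa1 have pseudogenes nearly identical to them, and how reads matching both were treated is uncertain. Lowest of the 78 was Dnajc6, the neuronal auxilin, at 0.0299 RPKM.

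The first comparison, Active against Inactive, asks how 6 weeks of training bore on the resting transcriptome. No member passed the threshold, which asked for an adjusted p under 0.05 in edgeR (quasi-likelihood fit, Benjamini-Hochberg over 16129 genes) and an absolute log2 fold change over 0.25. The share of all genes tested that passed it was 0% also. At an unadjusted p under 0.05, 15 of 79 members (19%) were lower in the Active group and 4 (5.06%) were higher, where 4.69% of all genes tested were lower and 6.18% higher. The 4 higher members were Dnajc3, Dnajc5, Dnajc7 and Hspa12a. The median log2 fold change was −0.032 over the members and 0.0052 over all genes, with 50 members below 0 and 29 above. DESeq2 gave some genes no adjusted p, and its shares are over the genes and members that had one. Without the fold change threshold it gave 4 of 76 members an adjusted p under 0.05 (5.26%), all lower in the Active group. Beside these stood 0.939% of 11826 genes. With the threshold it gave 0 of 76 members and 0.524% of these genes.

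Activity Reduction against Inactive compares mice that had stopped training with mice that had never trained. Again no member passed, and 0.0124% of all genes did. At an unadjusted p under 0.05, 6 members (7.59%) were higher and 2 (2.53%) were lower, beside 4.19% and 3.54% of all genes. The 6 were Dnajc5, Dnajc7, Dnajc19, Hspa1l, Hspb6 and Hspb7, and the 2 were Cct4 and Cct8. The median over members was 0.0015, with 41 above 0 and 38 below, and over all genes it was 0.0057. In DESeq2 only 35 members and 2587 genes had an adjusted p here, and 44 members had none. Without the fold change threshold it gave 0 of 35 members and 1.89% of the 2587 genes, and with it 0 of 35 and 0.812%.

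The effect of stopping is read from Activity Reduction against Active, which shares its groups with the other comparisons. No member passed, and 0% of all genes did. At an unadjusted p under 0.05, 14 members (17.7%) were higher after training stopped and 1 (1.27%), Hspa12a, was lower, beside 6.89% and 6.44% of all genes. The median over members was 0.044, with 60 above 0 and 19 below, and over all genes it was −0.00065. DESeq2 without the fold change threshold gave 1 of 78 members (1.28%), Cct7, beside 1.29% of the 14544 genes with an adjusted p. With the threshold it gave 0 of 78 members and 0.791%. The 3 comparisons use each group of mice in common, so the values for a gene are given side by side below and their likeness is not counted as a result.

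In the libraries with fewer liver transcripts, Active against Inactive had 8 members lower (10.1%) and 2 higher (2.53%) at an unadjusted p under 0.05, beside 3.06% and 3.02% of all genes. Activity Reduction against Active had 3 members higher (3.8%) and 1 lower (1.27%) there, beside 2.03% and 2.39% of all genes. Both counts rest on 2 Active libraries. A test over the 3 groups together gave 21 members at an unadjusted p under 0.05, against 12.6% of all genes, and no member with an adjusted p under 0.05 in edgeR. The lowest adjusted p in that edgeR test was 0.126, for Hsp90ab1. DESeq2 gave 4 of 77 members (5.19%) an adjusted p under 0.05 over the 3 groups, beside 1.79% of the 13999 genes that had one. With liver transcripts as a covariate 13 members (16.5%) had an unadjusted p under 0.05 over the 3 groups, beside 10.8% of all genes, and in the libraries with fewer of them 9 (11.4%), beside 6.93%. With the covariate, Activity Reduction against Active had 9 members higher (11.4%) and 2 lower (2.53%), beside 5.8% and 5.53% of all genes. Active against Inactive had 10 lower (12.7%) and 3 higher (3.8%) with it, beside 8.16% of all genes in both directions together. Its median log2 fold change was then −0.022 over the members and 0.0066 over all genes. The lowest edgeR adjusted p of a member there was 0.411, against 0.159 without the covariate.

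**Figure D2:**
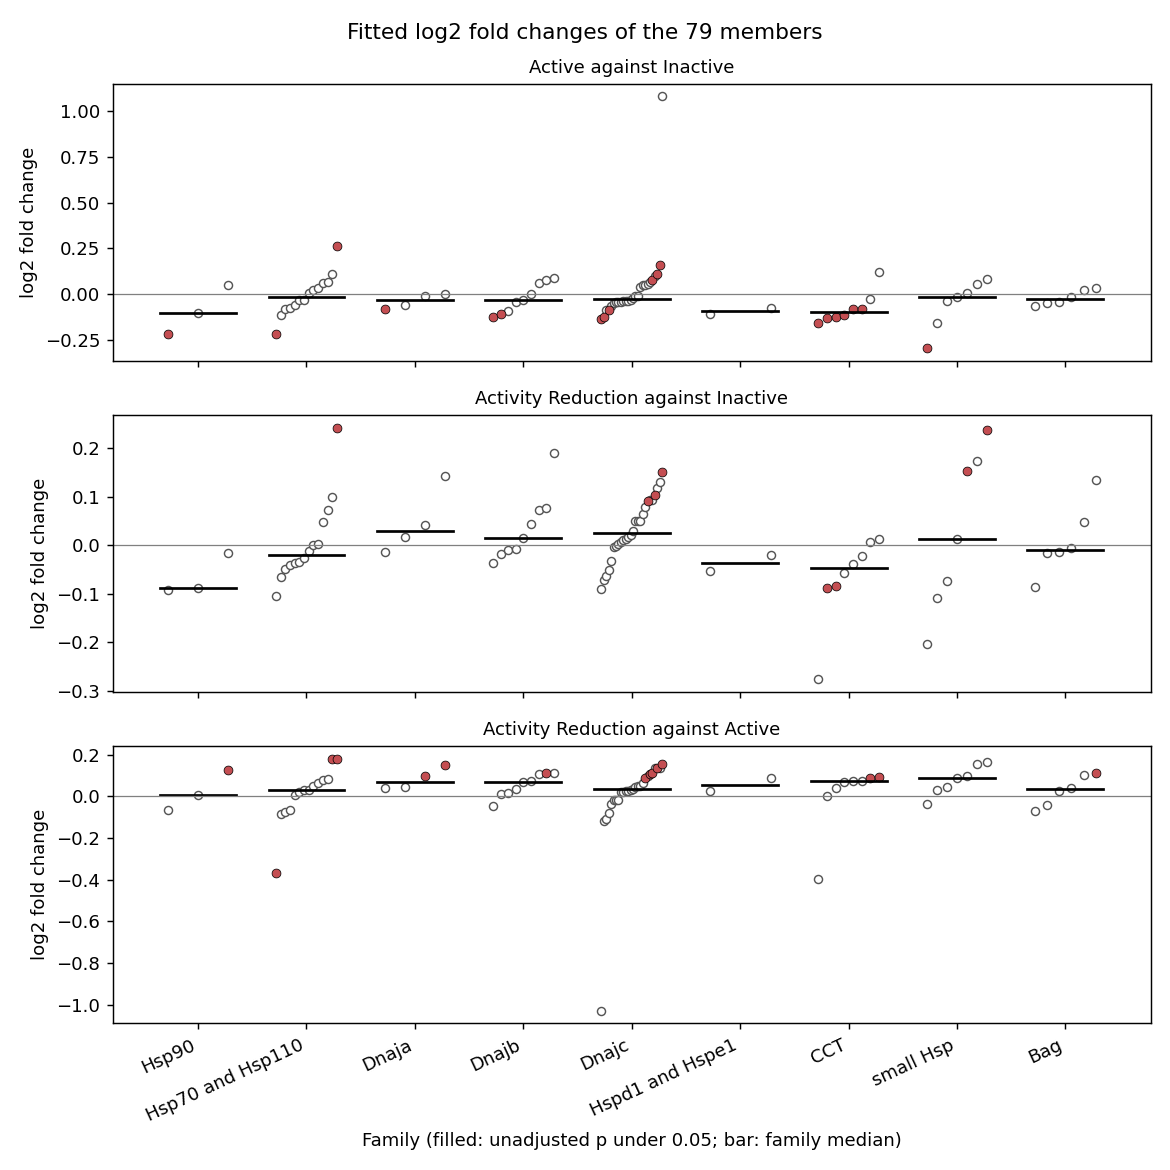
Log2 fold change of each member in the 3 comparisons by family, with one point per gene, filled at an unadjusted p under 0.05, and a bar at each family's median. In Active against Inactive 50 of 79 points lie below 0, and in Activity Reduction against Active 60 lie above it.

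Complete separation of groups was seen for few members. The CPM of all 7 Active mice lay below those of all 7 Inactive mice for Hsp90ab1, Cct4, Cct7 and Cct8, which is 4 of 79 members (5.06%) against 0.174% of all genes, and no member was separated the other way, against 0.0496%. In Activity Reduction against Inactive, Cct8 alone lay wholly below (1.27%, against 0.0434%), and none wholly above (0.0682% of all genes). In Activity Reduction against Active, Cct7 and Dnajc2 lay wholly above (2.53%, against 0.174%), and none wholly below (0.112%).

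Hsp90ab1 (chr17:45878552-45891949, minus strand, GRCm39) was the member with the smallest p in Active against Inactive. In the Inactive group its CPM ran from 1150.5 through a median of 1244 to 1265. In the Active group it ran from 956 through 1079 to 1132, and in the Activity Reduction group from 1063 through 1150.4 to 1237. All Active mice were thus below all Inactive mice, and the Activity Reduction mice overlapped both groups. The log2 fold change was −0.21 ± 0.043 (SE) for Active against Inactive, with an adjusted p of 0.159 in edgeR and 0.004 in DESeq2 (Benjamini-Hochberg), and an exact permutation test, two-sided, gave p = 0.000583, the smallest possible with 7 against 7 mice. Members named for a small p were picked on these mice, so the exact p of each such member describes it and is no independent evidence. Activity Reduction lay between, with −0.089 ± 0.043 against Inactive (edgeR adjusted p = 0.657, Benjamini-Hochberg) and 0.12 ± 0.043 against Active (edgeR adjusted p = 0.211, Benjamini-Hochberg). Active against Inactive was −0.23 in the libraries with fewer liver transcripts (2 against 6 mice) and −0.12 in those with more (5 against 1). Activity Reduction against Inactive was −0.13 in the former (5 against 6 mice) and 0.070 in the latter (2 against 1), where the sign turns. Of the exons of Hsp90ab1, 34.9% overlap genes of the opposite strand, among them Slc35b2, and the strand setting of the counting is not stated.

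The other Hsp90 genes did not separate the groups. Hsp90aa1 ran from 34.5 through 38.4 to 42.6 CPM in the Inactive group, from 32.3 through 34.6 to 39.5 in the Active group and from 31.97 through 35.3 to 40.1 in the Activity Reduction group, and the groups overlapped (log2 fold change −0.10 ± 0.056, Active against Inactive). Hsp90b1, the Hsp90 of the endoplasmic reticulum, had a log2 fold change of 0.052 ± 0.056. Among 19 other cochaperones of Hsp70 and Hsp90, 15 were below 0 in Active against Inactive. Of these 5 had an unadjusted p under 0.05, beside 4.69% of all genes lower, and none passed after adjustment in edgeR. Activity Reduction against Active had 18 of the 19 above 0, 4 of them at an unadjusted p under 0.05, beside 6.89% of all genes higher. Ahsa1, which speeds the ATPase of Hsp90, had a log2 fold change of −0.13 ± 0.035 against Inactive (edgeR adjusted p = 0.207, Benjamini-Hochberg) and Activity Reduction was 0.12 ± 0.035 above Active (edgeR adjusted p = 0.154, Benjamini-Hochberg). Fkbp8, an immunophilin that binds Hsp90, had 0.16 ± 0.041 in Activity Reduction against Inactive (edgeR adjusted p = 0.291, Benjamini-Hochberg).

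**Figure D3:**
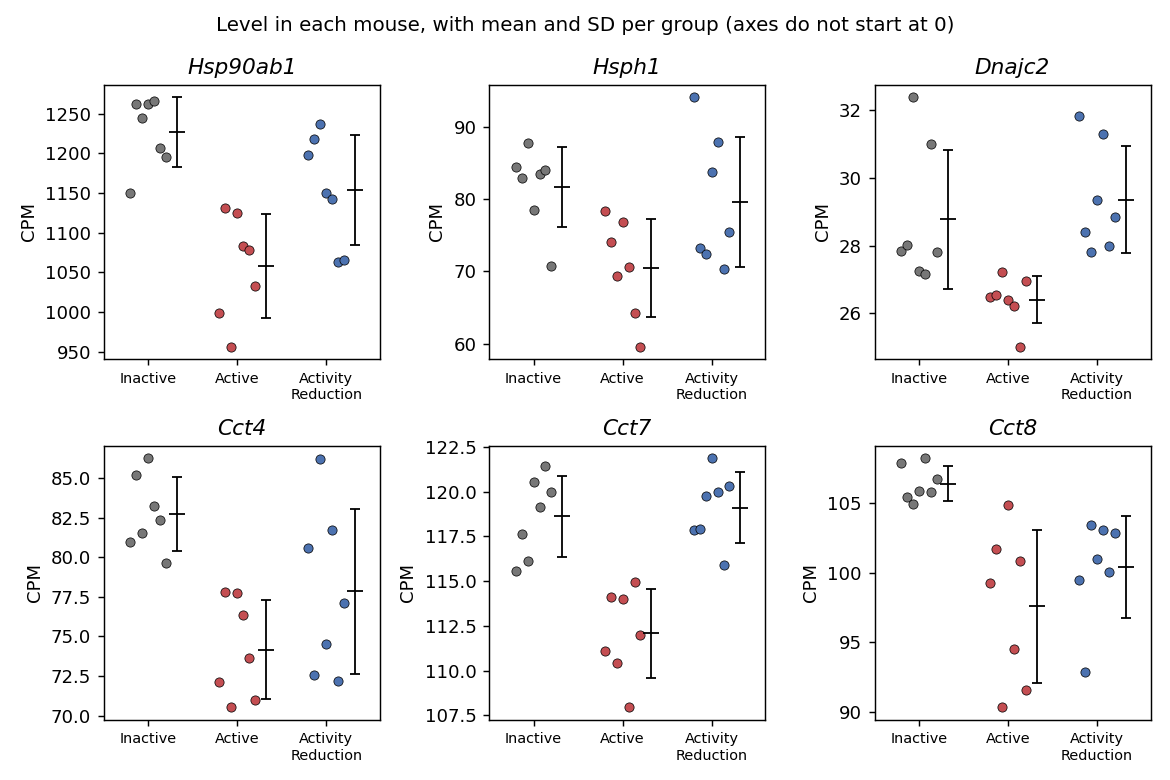
Normalized CPM (y axes, which do not start at 0) of Hsp90ab1, Hsph1, Dnajc2, Cct4, Cct7 and Cct8 in each mouse by group, with a bar for the mean and SD of the 7 mice. Hsp90ab1 ran from 956 to 1132 CPM in the Active group and from 1150.5 to 1265 in the Inactive group.

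The CCT subunits lay lower in the Active group with few exceptions. The median log2 fold change of the 8 genes in Active against Inactive was −0.098, beside 0.0052 over all genes. Of the 8, 7 were below 0 and 6 of these had an unadjusted p under 0.05, beside 4.69% of all genes lower. None had an adjusted p under 0.05 in edgeR. In Activity Reduction against Inactive 6 were below 0 (2 at an unadjusted p under 0.05, beside 3.54% of all genes lower). In Activity Reduction against Active 6 were above 0 (2 at an unadjusted p under 0.05, beside 6.89% of all genes higher). The ring has 8 kinds of subunit, 7 of them among the members and the remaining one Tcp1, whose symbol the selection does not reach. With Tcp1, the ring summed to 809 through 822 to 834 CPM in the Inactive group, 728 through 760 to 807 in the Active group and 754 through 802 to 828 in the Activity Reduction group. All Active sums were below all Inactive sums.

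Cct4 (chr11:22940379-22956236, plus strand) ran from 79.7 through 82.3 to 86.2 CPM in the Inactive group, from 70.5 through 73.6 to 77.8 in the Active group and from 72.2 through 77.1 to 86.2 in the Activity Reduction group. The Active and Inactive mice did not overlap, with a log2 fold change of −0.16 ± 0.039 (adjusted p = 0.162 in edgeR and 0.0219 in DESeq2, Benjamini-Hochberg), and Activity Reduction overlapped both at −0.088 ± 0.039 against Inactive. Cct8 (chr16:87279168-87292801, minus strand) ran from 105 through 106 to 108 CPM in the Inactive group, from 90.3 through 99.2 to 105 in the Active group and from 92.8 through 101 to 103 in the Activity Reduction group. It lay lower than Inactive in all mice of both other groups, though the highest Active and lowest Inactive mouse nearly touched. The log2 fold changes were −0.13 ± 0.034 for Active (adjusted p = 0.206 in edgeR and 0.0371 in DESeq2, Benjamini-Hochberg) and −0.084 ± 0.034 for Activity Reduction (edgeR adjusted p = 0.552, Benjamini-Hochberg).

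Cct7 (chr6:85428439-85445708, plus strand) was the steadiest of these. It ran from 116 through 119 to 121 CPM in the Inactive group, from 108 through 112 to 115 in the Active group and from 116 through 119.8 to 122 in the Activity Reduction group. The Active mice lay below those of both other groups, which overlapped. The log2 fold change was −0.082 ± 0.024 for Active against Inactive (adjusted p = 0.234 in edgeR and 0.0417 in DESeq2, Benjamini-Hochberg) and 0.087 ± 0.024 for Activity Reduction against Active (adjusted p = 0.13 in edgeR and 0.0326 in DESeq2, Benjamini-Hochberg). Its within-group SD of 0.028 on the log2 CPM scale was the smallest of the 16129 genes tested. In the libraries with fewer liver transcripts the differences between Active and Inactive were −0.20 for Cct4, −0.069 for Cct7 and −0.14 for Cct8, and in those with more they were −0.11, −0.051 and −0.14. Exons overlapping genes of the opposite strand made up 20.7% of Cct8, 13.5% of Cct7 and 7.72% of Cct4.

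The remaining subunits, named to complete the ring, had smaller or less even differences. Cct2 was the subunit of highest level per length at 28.5 RPKM, though by mean counts Cct6a (6238), Cct7 (5845) and Cct5 (5332) stood above Cct2 (5188). In Active against Inactive Cct2 had a log2 fold change of −0.13 ± 0.045 (edgeR adjusted p = 0.33, Benjamini-Hochberg), Cct6a −0.11 ± 0.044, Tcp1 −0.093 ± 0.034, Cct3 −0.079 ± 0.038 and Cct5 −0.023 ± 0.038. Cct6b, a copy of Cct6a known from testis, was near the floor at 0.358 CPM with 0.12 ± 0.25. Prefoldin hands actin and tubulin to the ring. Of 10 genes of Tcp1, prefoldin and ring cofactors, 9 were below 0 in Active against Inactive (2 at an unadjusted p under 0.05, beside 4.69% of all genes lower). All 10 were above 0 in Activity Reduction against Active (3 at an unadjusted p under 0.05, beside 6.89% of all genes higher). Pfdn2, a prefoldin subunit, had −0.12 ± 0.046 and then 0.16 ± 0.046 (edgeR adjusted p = 0.383 and 0.154, Benjamini-Hochberg).

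**Figure D4:**
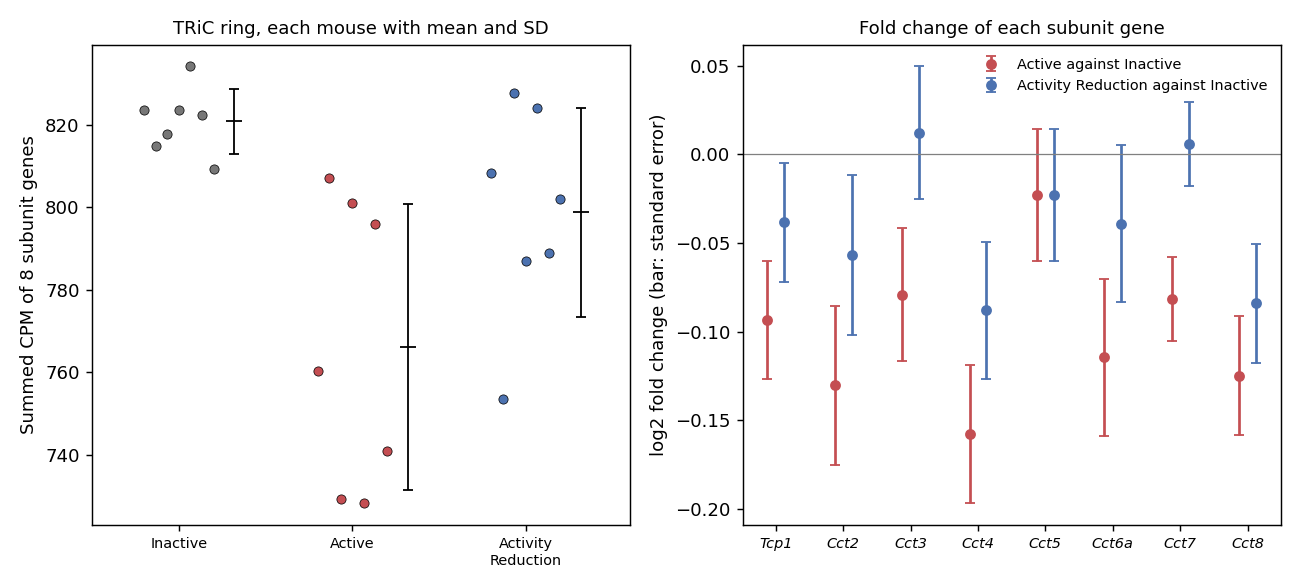
Left, summed CPM of the 8 subunits of the ring (also called TRiC), Tcp1 included, in each mouse by group with mean and SD, and right, the log2 fold change of each subunit gene with its SE for Active (red) and Activity Reduction (blue) against Inactive. The Active mice lie between 728 and 807, all below the Inactive mice, which lie between 809 and 834.

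In the Hsp70 and Hsp110 family, the median log2 fold change of 14 genes was −0.012 in Active against Inactive, with 7 above 0 and 7 below. Hsph1 (chr5:149537636-149560156, minus strand), the inducible Hsp110 that frees Hsp70 of its nucleotide, ran from 70.7 through 83.4 to 87.7 CPM in the Inactive group, from 59.6 through 70.6 to 78.4 in the Active group and from 70.4 through 75.5 to 94.1 in the Activity Reduction group. Active and Inactive overlapped at their edges, with a log2 fold change of −0.21 ± 0.069 (edgeR adjusted p = 0.292, Benjamini-Hochberg) and exact permutation p = 0.00641, two-sided. Activity Reduction was 0.18 ± 0.069 above Active (edgeR adjusted p = 0.271, Benjamini-Hochberg). The difference between Active and Inactive was −0.39 in the libraries with fewer liver transcripts and −0.19 in those with more. Hspa8 overlapped in all groups, from 718 through 788 to 868 CPM (Inactive), 680.0 through 741 to 792 (Active) and 732 through 763 to 887 (Activity Reduction), and so did Hspa9, from 486 through 502 to 538, 468 through 497 to 505 and 458 through 494 to 533.

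Hspa1l (chr17:35191664-35198261, plus strand), a gene known from testis beside Hspa1a in the major histocompatibility region, had the smallest unadjusted p in Activity Reduction against Inactive. It ran from 22.4 through 27.0 to 30.4 CPM in the Inactive group, from 24.4 through 27.3 to 31.1 in the Active group and from 27.6 through 29.7 to 39.6 in the Activity Reduction group. The Activity Reduction mice reached higher and overlapped the Inactive ones, with a log2 fold change of 0.24 ± 0.081 (edgeR adjusted p = 0.45, Benjamini-Hochberg). The difference was 0.13 in the libraries with fewer liver transcripts (5 against 6 mice) and 0.63 in the rest (2 against 1). Of its exons 71.5% overlap Gm10501 on the opposite strand, so its reads and those of Gm10501 cannot be told apart here.

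Hspa12a (chr19:58784181-58932086, minus strand), a distant Hsp70 relative, was the member lower in Activity Reduction than in Active at an unadjusted p under 0.05. It ran from 4.33 through 5.09 to 6.75 CPM in the Activity Reduction group, from 5.99 through 6.45 to 9.22 in the Active group and from 4.21 through 5.56 to 7.87 in the Inactive group. The groups overlapped, and the log2 fold change of Activity Reduction against Active was −0.37 ± 0.12 (edgeR adjusted p = 0.187, Benjamini-Hochberg). The highest values, 7.87 in Inactive replicate 7 and 9.22 in Active replicate 7, came from the libraries with the highest sums of the 7 Schwann cell markers, at 178 and 213 CPM. In the other 19 libraries Hspa12a ran from 4.21 to 6.82 CPM and those markers from 57.8 to 121 CPM. The part of nerve in this difference was not tested.

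J-domain proteins, 39 in all, mostly varied little. In Active against Inactive the median log2 fold change was −0.033 over 4 Dnaja, −0.030 over 9 Dnajb and −0.025 over 26 Dnajc genes. Dnajc2 (chr5:21962264-21990249, minus strand), which works on nascent chains at the ribosome, ran from 27.2 through 27.8 to 32.4 CPM in the Inactive group, from 25.02 through 26.5 to 27.2 in the Active group and from 27.8 through 28.8 to 31.8 in the Activity Reduction group. Activity Reduction lay wholly above Active, with a log2 fold change of 0.15 ± 0.044 (edgeR adjusted p = 0.154, Benjamini-Hochberg), and Active was −0.12 ± 0.044 against Inactive (edgeR adjusted p = 0.333, Benjamini-Hochberg).

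Dnajc5, the cysteine string protein of secretory vesicles, lay highest in the Active group by its median. It ran from 48.1 through 51.2 to 52.7 CPM in the Inactive group, from 49.9 through 54.7 to 59.9 in the Active group and from 51.1 through 54.0 to 57.9 in the Activity Reduction group. Both other groups reached higher than Inactive and overlapped it, with log2 fold changes of 0.11 ± 0.037 and 0.092 ± 0.037 (edgeR adjusted p = 0.324 and 0.554, Benjamini-Hochberg). Dnajc7, which binds both Hsp70 and Hsp90, had 0.080 ± 0.038 and 0.10 ± 0.038 (edgeR adjusted p = 0.452 and 0.495, Benjamini-Hochberg). Dnaja2, the J-domain protein of highest level, ran from 234 through 248 to 262 CPM, from 223 through 233 to 246 and from 223 through 253 to 266 in the Inactive, Active and Activity Reduction groups, which overlapped. Dnajc12 and Dnajc14 had 0.14 ± 0.047 and 0.11 ± 0.043 in Activity Reduction against Active (edgeR adjusted p = 0.211 and 0.258, Benjamini-Hochberg), and Dnajc19, of the mitochondrial import motor, had 0.15 ± 0.062 in Activity Reduction against Inactive (edgeR adjusted p = 0.562, Benjamini-Hochberg).

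In edgeR the 9 members listed as chaperones of the endoplasmic reticulum lay above 0 in Active against Inactive, where most members lay below it. None passed the test. All 9 had an edgeR log2 fold change above 0 there, from 0.00081 to 0.16. Of these 1 (Dnajc3) had an unadjusted p under 0.05, beside 6.18% of all genes higher. In Activity Reduction against Active 7 of the 9 were below 0. The list left out Dnajb12, Dnajb14, Dnajc14 and Dnajc18, J-domain proteins also known from the membrane of this compartment. In DESeq2 these had log2 fold changes of −0.13, −0.037, −0.070 and −0.14 in Active against Inactive. In that fit Dnajb11, of the listed 9, also lay below 0, at −0.0064. Hspa5, the Hsp70 of this compartment also called BiP, had 0.11 ± 0.077 in Active against Inactive and Dnajc3, a J-domain protein of its lumen, had 0.16 ± 0.057 (edgeR adjusted p = 0.333, Benjamini-Hochberg). Both are named after their values were seen. Of the exons of Hspa5, 44.2% overlap Rabepk on the opposite strand. Of 16 other folding and stress genes of the compartment, 10 were above 0 in Active against Inactive. Of these 2 had an unadjusted p under 0.05, beside 6.18% of all genes higher. In Activity Reduction against Active 12 of the 16 were below 0. The disulfide isomerase Pdia4 had 0.23 ± 0.071 in Active against Inactive and −0.19 ± 0.071 in Activity Reduction against Active (edgeR adjusted p = 0.282 and 0.247, Benjamini-Hochberg). Pdia3 had 0.17 ± 0.059 and −0.18 ± 0.059. Macrophage markers differed in the same direction, 8 of 9 above 0 in Active against Inactive with a median log2 fold change of 0.41. So did liver markers (24 of 24, median 1.20), tendon fibroblast markers (8 of 8, 0.30) and Schwann cell markers (7 of 7, 0.24). Dnajc3 ran from 35.7 through 39.6 to 44.8 CPM in the 8 libraries rich in liver transcripts and from 33.0 through 35.9 to 42.4 in the other 13, and the part of these cells in the values of the compartment was not tested.

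Of 10 mitochondrial members tested, 3 were above 0 and 7 below in Active against Inactive, between −0.11 and 0.055. In Activity Reduction against Inactive 4 were above 0 and 6 below, between −0.091 and 0.15, with Dnajc19 at an unadjusted p under 0.05, and in Activity Reduction against Active 8 were above 0. Hspd1 and Hspe1, which form the mitochondrial Hsp60 and Hsp10 chamber, had −0.076 ± 0.050 and −0.11 ± 0.065. Hspd1 ran from 187 through 198 to 227 CPM in the Inactive group, from 177 through 189 to 220.1 in the Active group and from 179 through 197 to 209 in the Activity Reduction group, which overlapped. Of 9 other mitochondrial folding and protease genes, 1 (Clpb, a disaggregase) was lower at an unadjusted p under 0.05 in Active against Inactive, beside 4.69% of all genes. Its log2 fold change was −0.10 ± 0.036 (edgeR adjusted p = 0.331, Benjamini-Hochberg).

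Members known to be raised by HSF1 were considered as a list of 14. In Active against Inactive 11 were below 0 and 3 above, with a median of −0.078 beside 0.0052 over all genes. Of the 14, 2 (Hsp90ab1 and Hsph1) were lower at an unadjusted p under 0.05, beside 4.69% of all genes. Against Inactive the Activity Reduction group also had 11 below 0, with a median of −0.028, and against Active it had 13 above 0, with a median of 0.059. Their summed CPM was 2693 through 2891 to 3007 in the Inactive group, 2483 through 2612 to 2807 in the Active group and 2659 through 2803 to 2886 in the Activity Reduction group. It was 2490 through 2730 to 2852 in the 8 libraries rich in liver transcripts and 2483 through 2867 to 3007 in the other 13. In those 13, Hsp90ab1 and Hspa8, the constitutive forms, had medians of 1195 and 763 CPM, and so carried most of the sum. Hspa1a, Hspa1b and Dnajb1 had medians of 3.73, 2.17 and 6.28 CPM there. Of the exons of Dnaja1, also on the list, 83.4% overlap genes of the opposite strand, among them Smu1. The part of the libraries rich in liver transcripts in the list's values was not tested. HSF1 itself had −0.11 ± 0.058 and Hsbp1, which binds and restrains it, −0.080 ± 0.038 in Active against Inactive.

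The 250 bases before the start of the paired genes Hspa1a and Hspa1b and a stretch between Hspd1 and Hspe1 are shown because they hold the HSF1 element in its short and long form. Capitals mark the element, which is built of units of GAA and TTC, with N for any base, and was searched on both strands. The first and second sequences are on chr17:35191133-35191382 and chr17:35178215-35178464 and the third on chr1:55127212-55127241, all read on the minus strand of GRCm39.
Hspa1a: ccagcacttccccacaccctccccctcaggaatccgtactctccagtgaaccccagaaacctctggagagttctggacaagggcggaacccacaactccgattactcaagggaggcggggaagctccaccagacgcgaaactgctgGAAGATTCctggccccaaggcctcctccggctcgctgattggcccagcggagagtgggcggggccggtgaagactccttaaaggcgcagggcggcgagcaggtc
Hspa1b: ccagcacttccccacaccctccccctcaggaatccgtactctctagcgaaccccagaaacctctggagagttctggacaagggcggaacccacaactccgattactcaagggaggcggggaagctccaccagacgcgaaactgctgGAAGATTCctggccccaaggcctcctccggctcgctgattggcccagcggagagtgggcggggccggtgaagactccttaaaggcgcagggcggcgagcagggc
Hspd1 and Hspe1: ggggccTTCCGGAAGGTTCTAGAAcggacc
The stretches of Hspa1a and Hspa1b differ at 3 bases, and Hspd1 and Hspe1 start 107 bases apart on opposite strands. The long form, GAANNTTCNNGAA or TTCNNGAANNTTC, stood in 76 of 21770 such 250-base stretches of protein-coding genes (0.349%), and of 78 members in Hspd1 and Hspe1. The short form, GAANNTTC or TTCNNGAA, stood in 12.28% of all stretches and in 13 of 78 members (16.67%), where each long form also holds a short one. The 13 were Cct5, Dnaja1, Dnajc6, Dnajc10, Dnajc27, Dnajc30, Hspa1a, Hspa1b, Hspb1, Hspb3, Hspd1, Hspe1 and Hsph1. Of the HSF1 list, Bag3, Dnajb1, Dnajb4, Hsp90aa1, Hsp90ab1, Hspa8 and Hspb8 were not among them, nor were Cct4, Cct7 and Cct8. A match is only a description, and a missing match says only that these letters are not in this window.

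Hspa1a (chr17:35188166-35191132, minus strand) ran from 3.05 through 3.66 to 5.61 CPM in the Inactive group, from 2.74 through 3.93 to 4.82 in the Active group and from 2.84 through 3.54 to 5.51 in the Activity Reduction group. Since Hspa1a and Hspa1b are 99.2% identical over 74.0% of the Hspa1a transcript, how their shared reads were divided is uncertain and they were also summed. The sum ran from 4.96 through 5.79 to 8.01, from 4.83 through 5.86 to 8.46 and from 4.42 through 5.82 to 8.45 CPM in the Inactive, Active and Activity Reduction groups. The groups thus overlapped almost wholly. Dnajb1 ran from 4.62 through 6.06 to 7.69 CPM, from 4.78 through 6.61 to 7.44 and from 5.48 through 7.56 to 8.04, and overlapped too.

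Whether inducible members vary together from mouse to mouse was tested against the sum of Hspa1a and Hspa1b, on log2 CPM with the group means taken off. Of 6 members tested, Bag3 followed it over the 21 mice, with Pearson r = 0.631 (permutation p = 0.00154, adjusted over the 6 0.00924) and Spearman rho = 0.696 (permutation p = 0.00068, adjusted 0.00408). Without the 2 mice farthest from the median r was 0.691. Within the 13 libraries with fewer liver transcripts r was 0.584 (permutation p adjusted 0.106) and within the 8 with more it was 0.604 (exact permutation p adjusted 0.257), so neither division alone passed the test. The r of Hsp90aa1, Dnajb1, Hspa8, Hspb1 and Hsph1 were 0.346, 0.249, 0.203, 0.134 and −0.332, none with an adjusted permutation p under 0.05 over the 21 mice. Within the 13 libraries with fewer liver transcripts Hsph1 had r = −0.713 (permutation p adjusted 0.0385), and within the other 8 it had −0.035 (exact permutation p adjusted 0.934).

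Small heat shock proteins of muscle guard the Z-disc and, with Bag3, take damaged filament proteins to autophagy. Hspb6 (chr7:30251603-30256218, plus strand) ran from 593 through 686 to 793 CPM in the Inactive group, from 659 through 716 to 781 in the Active group and from 573 through 801 to 813 in the Activity Reduction group. Activity Reduction had the higher median and both the lowest and the highest mouse, and the log2 fold change against Inactive was 0.15 ± 0.071 (edgeR adjusted p = 0.64, Benjamini-Hochberg). Hspb7, the cardiovascular small heat shock protein, ran from 178 through 269 to 338 CPM, from 255 through 269 to 328 and from 244 through 322.1 to 347 in the Inactive, Active and Activity Reduction groups, with 0.24 ± 0.11 in Activity Reduction against Inactive (edgeR adjusted p = 0.644, Benjamini-Hochberg). The groups overlapped for both genes, and the difference of Hspb7 was 0.11 in the libraries with fewer liver transcripts and 0.94 in the rest (2 against 1 mice). Beside these values, the 9 slow fibre markers were all below 0 in Activity Reduction against Inactive (5 at an unadjusted p under 0.05, beside 3.54% of all genes lower). Their sums were 726 through 1638 to 2133 CPM against 1961 through 2314 to 2502, and the part of fibre type was not tested.

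Hspb8, the partner of Bag3 in this pathway, ran from 181 through 209 to 255 CPM in the Inactive group, from 174 through 191 to 208 in the Active group and from 163 through 187 to 226 in the Activity Reduction group. The groups overlapped, with log2 fold changes of −0.15 ± 0.077 and −0.11 ± 0.077 against Inactive (edgeR adjusted p = 0.474 and 0.809, Benjamini-Hochberg). Hspb1, Hspb2 and Hspb3 had log2 fold changes of 0.0094, −0.017 and −0.034 in Active against Inactive, and 68.8% of the Hspb1 transcript is nearly identical to a pseudogene. Of the exons of Hspb2, 62.1% overlap Cryab on the opposite strand, so reads of the pair cannot be told apart here. Hspb11, a ciliary protein named with this family, had −0.29 ± 0.14 at 1.88 CPM (edgeR adjusted p = 0.456, Benjamini-Hochberg). Over the 8 genes of the list of small heat shock proteins and their autophagy partners, the median log2 fold change was −0.026 in Active against Inactive and 0.0029 in Activity Reduction against Inactive. Of 8 other muscle chaperone and filament genes, the autophagy receptor Sqstm1 had −0.16 ± 0.067 in Active against Inactive and 0.26 ± 0.067 in Activity Reduction against Active (edgeR adjusted p = 0.396 and 0.123, Benjamini-Hochberg), and Synpo2, which works with Bag3 at the Z-disc, had 0.14 ± 0.038 in Activity Reduction against Inactive (edgeR adjusted p = 0.331, Benjamini-Hochberg).

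Most Bag proteins end the Hsp70 cycle by releasing ADP. Bag3 (chr7:128125283-128148705, plus strand) ran from 87.4 through 101 to 111 CPM in the Inactive group, from 84.1 through 96.6 to 100.3 in the Active group and from 91.2 through 99.4 to 103 in the Activity Reduction group, which overlapped, at −0.048 ± 0.047 for Active against Inactive. Bag6 (chr17:35353937-35366298, plus strand), which guides tail-anchored and failed proteins, ran from 201 through 205 to 207 CPM, from 182 through 197 to 207 and from 202 through 209 to 234 in the Inactive, Active and Activity Reduction groups. Activity Reduction reached higher than Active and overlapped it, with a log2 fold change of 0.11 ± 0.034 (edgeR adjusted p = 0.162, Benjamini-Hochberg) and exact permutation p = 0.00583, two-sided. Bag1, the family's highest per length at 42.2 RPKM, had 0.033 ± 0.11 in Active against Inactive.

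One member, Dnajc22 (chr15:98991001-99003409, plus strand), was set apart by the liver transcripts. It ran from 0.618 through 0.926 to 1.59 CPM in the 8 libraries with more of them and from 0.0624 through 0.166 to 0.383 CPM in the 13 with fewer, with no overlap. Its log2 fold change was 1.08 ± 0.61 in Active against Inactive (edgeR adjusted p = 0.528, Benjamini-Hochberg). Within the divisions the difference was −0.21 (2 against 6 mice) and −0.27 (5 against 1), of the opposite sign. No other member separated these libraries.

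**Figure D5:**
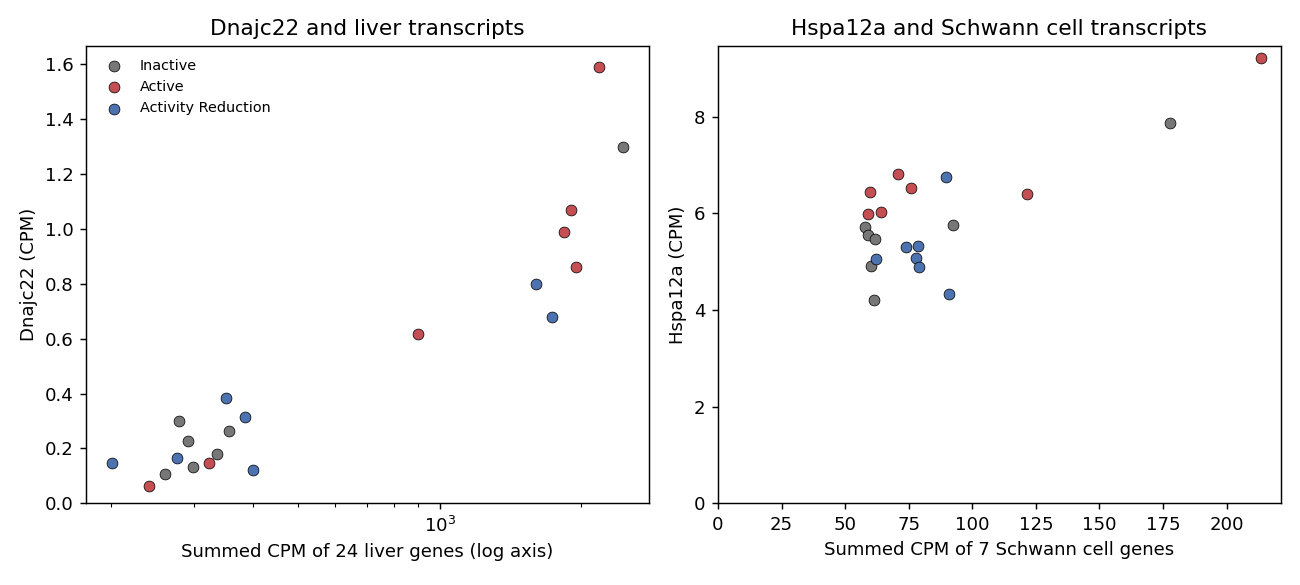
CPM of Dnajc22 against the summed CPM of 24 liver markers (log axis, left) and of Hspa12a against that of 7 Schwann cell markers (right), with one point per mouse coloured by group. Dnajc22 is at 0.618 CPM or above in the 8 libraries rich in liver transcripts and at 0.383 or below in the other 13.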

How the data were processed

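Poly(A) RNA of the medial gastrocnemius of 21 female mice was sequenced. The deposited table held raw counts per gene. The authors' notes name fastp, STAR, featureCounts, DESeq2 and the GRCm39 genome. Their versions, the annotation release and the strand setting are not given in the sources used here. A second deposited table held the same 857913 values and was not used. Replicates were separate mice.

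Counts were fitted in edgeR 4.0.16 (R 4.3.3) with TMM normalization, filterByExpr and a quasi-likelihood test on all 21 libraries, with group as the sole term. Benjamini-Hochberg adjustment ran over 16129 genes, and a gene was called at an adjusted p under 0.05 with an absolute log2 fold change over 0.25. SE is the fold change divided by the root of F. Values are TMM-normalized CPM, and RPKM uses union exon lengths of GENCODE vM39. Named members also had two-sided exact permutation tests on log2 CPM (prior 0.5) in scipy 1.17.1, 123 in all. Of these 30 gave p under 0.05, and 9 did after adjustment over the 123. Many of the members were named for a small p on these same mice. The exact tests were not run on all genes, so the counts cannot be read as an excess. Relations used 100000 permutations. Upstream stretches were read from GRCm39, and near-identical copies were found with BLAST+ 2.17.0 at 95% identity or more. The tests were checked on simulated data. For edgeR, 100 genes were changed 1.5-fold and 100 genes 2-fold, of which 79% and 93% were recovered, with 7 false calls. Smaller changes, such as those of most members here, were not simulated.

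Named were the 8 members of smallest p in each comparison and over the 3 groups, the list of 14 HSF1-induced members, the list of 8 small heat shock and autophagy members, each family's highest and most variable member, and 2 genes of smallest p in each list of other genes. The members and lists were chosen with earlier results of these data known. Alternatives were DESeq2 1.42.0, DESeq2 size factors, no filter, a fit on 2 groups, liver transcripts as a covariate, the libraries with fewer liver transcripts, a replicate block and leaving out each mouse. Before TMM scaling, 1 CPM stood for between 38.5 and 59.8 counts over the 21 libraries, so values well under 1 CPM rest on few reads.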

Additional observations from a re-analysis of the deposited data

Results flagged for a closer look

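Among 123 sets of 7 mice, those of the 41 named members in 3 groups, 13 had 1 mouse farther from the rest than Dixon's 95% critical value of 0.568 allows, where chance alone gives about 1 in 20 (5%). In the Active group these were Bag3 at 84.1 CPM in replicate 3 (next 95.7), Dnajc19 at 31.8 in replicate 1 (next 38.2) and Hspa12a at 9.22 in replicate 7 (next 6.82). In the Inactive group they were Dnajc22 at 1.30 CPM in replicate 1 (next 0.301), Hspa12a at 7.87 in replicate 7 (next 5.77), Hspa1b at 3.42 in replicate 2 (next 2.41) and Hspb1 at 45.3 in replicate 7 (next 76.2). In the Activity Reduction group replicate 2 had Bag6 at 234 CPM (next 214) and Cct8 at 92.8 (next 99.5), replicate 3 had Hspa12a at 6.75 (next 5.33) and Hspb6 at 573 (next 741), and replicate 6 had Hspb1 at 115 (next 84.8) and Hspe1 at 50.3 (next 44.3). The Inactive mouse with high Dnajc22 was the Inactive library with more liver transcripts, and the Inactive and Active mice with high Hspa12a had the highest Schwann cell marker sums.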

How the results depend on the processing

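No member was called by edgeR under any alternative. The 24 fold changes of the 8 members of smallest p in each comparison gave 672 values under the alternatives, with 0 reversed and 0 past the threshold. They were picked for a small p on these same mice, so their kept signs are no independent evidence. The other named members were not in this check, and Dnajc22 among them turned its sign within the divisions by liver transcripts, as given above. In the libraries with fewer liver transcripts, members at an unadjusted p under 0.05 numbered 2 higher and 8 lower in Active against Inactive (3.02% and 3.06% of all genes). They numbered 3 higher in Activity Reduction against Active (2.03% of all genes) and 9 over the 3 groups (6.93%). There 15 exact permutation tests gave p under 0.05, none after adjustment (lowest adjusted p 0.266). This setting has fewer libraries. With 2 Active mice the smallest exact permutation p was 0.0357 against 6 Inactive and 0.0476 against 5 Activity Reduction mice. Those tests could thus hardly pass adjustment over 123, whatever the values. Exact tests were run on named members only, so no share of all genes stands beside the 15. With liver transcripts as a covariate, members at an unadjusted p under 0.05 numbered 3 higher and 10 lower in Active against Inactive. Beside these stood 8.16% of all genes, higher and lower together. They numbered 9 higher and 2 lower in Activity Reduction against Active (5.8% and 5.53% of all genes) and 13 of 79 over the 3 groups (10.8% of all genes). DESeq2 gave 4 members with an adjusted p under 0.05 over the 3 groups (Hsp90ab1, Cct7, Cct4 and Cct8), beside 1.79% of the 13999 genes that had one. The cause of the difference from edgeR was not tested. Against the sum of Hspa1a and Hspa1b, r for Hspb1 was −0.147 without the 2 farthest mice and −0.0377 within the libraries with fewer liver transcripts, r for Hsph1 there was −0.713 (permutation p adjusted 0.0385, past the threshold, with rho −0.714 at adjusted 0.0487), and r for Bag3 was 0.584 there and 0.604 in the others.

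Leaving out 1 mouse at a time gave 2 to 4 members higher and 10 to 19 lower in Active against Inactive at an unadjusted p under 0.05. It gave 2 to 7 higher and 1 to 4 lower in Activity Reduction against Inactive, 9 to 16 higher and 1 to 3 lower in Activity Reduction against Active, and 14 to 20 over the 3 groups. The share of all genes at that p, higher and lower together, ran from 8.31% to 14.3%, from 5.31% to 9.07% and from 10.5% to 14.3% in the 3 comparisons, in that order. Counts moved by over 1.5 times without Inactive replicates 3, 4, 5 or 6, Activity Reduction replicates 1, 2, 3, 4, 6 or 7, or Active replicates 3, 4, 5, 6 or 7, each time for a count of 14 or fewer. Replicate numbers did not pair the mice: over 21 pairs the correlation of deviations ran from −0.207 to 0.6 with a median of 0.064. With the replicate block 0 members were called. At an unadjusted p under 0.05 it had 4 higher and 11 lower, 5 and 2, and 13 and 2 in the 3 comparisons, in the order given above. Of all genes 12.6%, 7.63% and 14.6% had that p there, higher and lower together.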
